A study of Danio rerio with 6 samples.

Results

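The BMP, Nodal and TGF-beta family is a group of secreted signals, their receptors, the Smad proteins that carry the signal to the nucleus, and the proteins that bind or block the signals outside the cell. Its genes were chosen by symbol, from the start of each name in the array's annotation (for example *bmp*, *smad*, *inhb*, *acvr*, *fst*, *lft* and *nog* followed by a digit). This gave 55 genes among the 8793 genes that a probe set with a single symbol read, and where a gene had several such probe sets, that of highest mean over the arrays was used. The study asked which genes depend on the transcription elongation factor Spt5, and compared whole *fogsk8* mutant embryos with their WT siblings at 24 hpf. The mutants carry the *sk8* mutation of *foggy/spt5*, which is predicted to leave no working zygotic protein, and maternal product remains in them. The study's methods name AB as its wild-type line, and the labels do not give the line of the sibling embryos. No agent was given, and chorions were removed by hand or with an enzyme. Total RNA from equal numbers of embryos was hybridized to 1 Affymetrix Zebrafish Genome Array per sample, with 3 WT and 3 *fogsk8* arrays.

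A BMP, Nodal, Activin or TGF-beta ligand binds a pair of type I and type II receptor kinases. The type I receptor then phosphorylates receptor Smads, Smad1 and Smad5 for BMP and Smad2 and Smad3 for Nodal, Activin and TGF-beta, and these enter the nucleus with Smad4. In the zebrafish gastrula BMP patterns the ventral side and Nodal induces mesendoderm, and at later stages both act again in the eye, fins, heart and left-right axis.

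Values are the authors' GC-RMA intensities on the log2 scale, and every change is *fogsk8* minus WT on that scale. A gene was called higher or lower at a Benjamini-Hochberg adjusted p under 0.05 from limma over all 15502 probe sets tested, at any fold or at 2-fold or more. The array medians were 5.08 to 5.15 and the 10th percentiles 2.28 to 2.35. Replicate 3 stood a little apart in both groups, with correlations to its own group of 0.9909 to 0.992, against 0.9956 to 0.9968 between replicates 1 and 2. The *supt5h* transcript, which encodes Spt5, was 7.42, 7.56 and 6.80 in WT and 3.66, 3.70 and 3.81 in *fogsk8* (change −3.54, SE 0.20, adjusted p = 0.000994). In marker lists for tissues of the embryo, 0 of 4 skin genes were called at any fold. All 3 skeletal muscle genes, all 4 red blood cell genes and both heart genes measured were 2-fold lower or more. So were 1 of 2 lens genes, 1 of 3 notochord and floor plate genes and 2 of 4 neuronal genes, and all 4 neuronal genes were lower at any fold. The mean of the heart genes was 8.55 to 8.83 in WT and 4.12 to 4.19 in *fogsk8*, and that of the muscle genes 12.38 to 13.14 and 9.74 to 10.44. Those of the red blood cell genes were 10.09 to 11.00 and 7.21 to 7.53, and those of the skin genes 11.33 to 11.55 and 11.43 to 11.82. In whole embryos fewer cells of a type and less RNA per cell cannot be told apart, and the part of these tissues in any family gene's change was not tested. Egg genes, which the embryo should lack, were under 4 in WT (3 of 3 measured, of 4 listed). The listed gene that was not measured, *zp2.4*, is one the study reported as higher in *fogsk8*. Of the 3 measured, *bmp15* is itself a family gene.

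Past 2-fold, 0 of the 55 genes were higher (0.898% of all genes) and 2 were lower, *bmp5* and *tdgf1*, which is 3.64% (3.2% of all genes). At any fold, 2 genes were higher, *bmp2b* and *inhbb*, which is 3.64% (10.8% of all genes). At any fold 4 were lower, *bmp5*, *tdgf1*, *lft2* and *bmpr1ab*, or 7.27% (9.14% of all genes). The median change of the family was 0.03, and that of all genes 0.06. The *fogsk8* arrays lay wholly above the WT arrays for 12 genes, or 21.8% (25.3% of all genes), and wholly below for 6, or 10.9% (15.6% of all genes). For 44 genes, or 80%, the 95% interval of the change lay within 2-fold in either direction (84.2% of all genes). Among the 30 family genes with a mean over 4 in a group, it did so for 22. The 49 genes that were not called had changes of −0.83 to 0.90 and adjusted p of 0.0563 to 0.984.

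**Figure D1:**
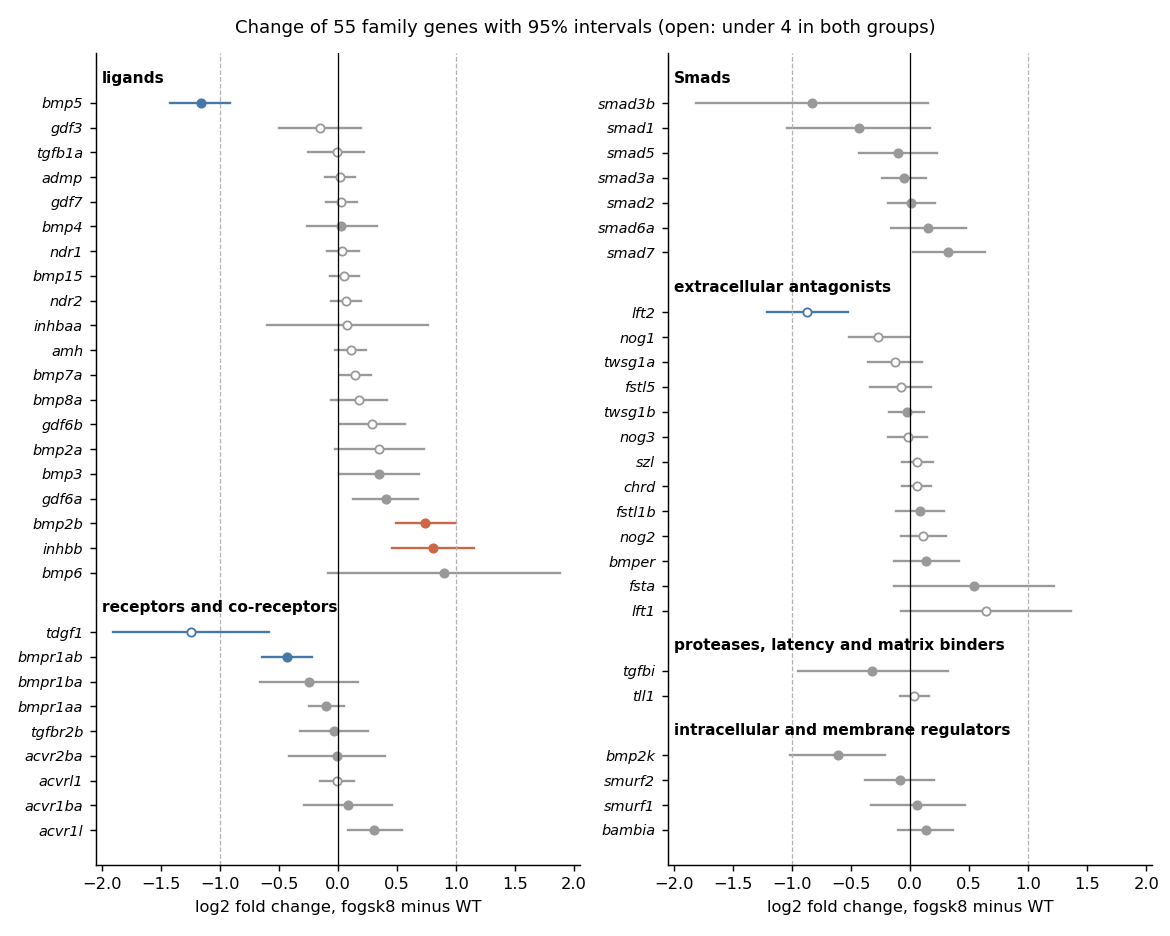
Change of each of the 55 family genes (log2 fold change, *fogsk8* minus WT, 3 arrays a group) with its 95% interval from limma, by role. Genes called lower are blue, genes called higher are orange, open points have a mean under 4 in both groups, and dashed lines mark 2-fold. The 6 called genes are *bmp5*, *tdgf1*, *lft2* and *bmpr1ab* to the left and *bmp2b* and *inhbb* to the right.

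The array read many of these genes near its floor. A mean log2 value under 4 in both groups was found for 25 of the 55 genes, or 45.5% (26.8% of all genes). Their single values ran from 1.89 to 4.24, and the median size of their changes was 0.08. A change between groups near the floor may be understated, which was not tested. They are 13 of 20 ligands, namely *admp*, *amh*, *bmp15*, *bmp2a*, *bmp7a*, *bmp8a*, *gdf3*, *gdf6b*, *gdf7*, *inhbaa*, *ndr1*, *ndr2* and *tgfb1a*. Another 9 are antagonists, namely *chrd*, *fstl5*, *lft1*, *lft2*, *nog1*, *nog2*, *nog3*, *szl* and *twsg1a*. The rest are the receptor *acvrl1*, the co-receptor *tdgf1* and the protease *tll1*. Both Nodal ligands are in this class: *ndr1* (squint) was 2.08 ± 0.015 in WT and 2.12 ± 0.050 in *fogsk8*, and *ndr2* (cyclops) 2.73 ± 0.038 and 2.80 ± 0.037 (SD, n = 3). The dorsal BMP antagonist *chrd*, chordin, was 2.58 ± 0.021 and 2.64 ± 0.034 (SD, n = 3). Of the 25 genes, 2 were called at any fold, *tdgf1* and *lft2*, both lower (9.14% of all genes were lower and 10.8% higher).

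**Figure D2:**
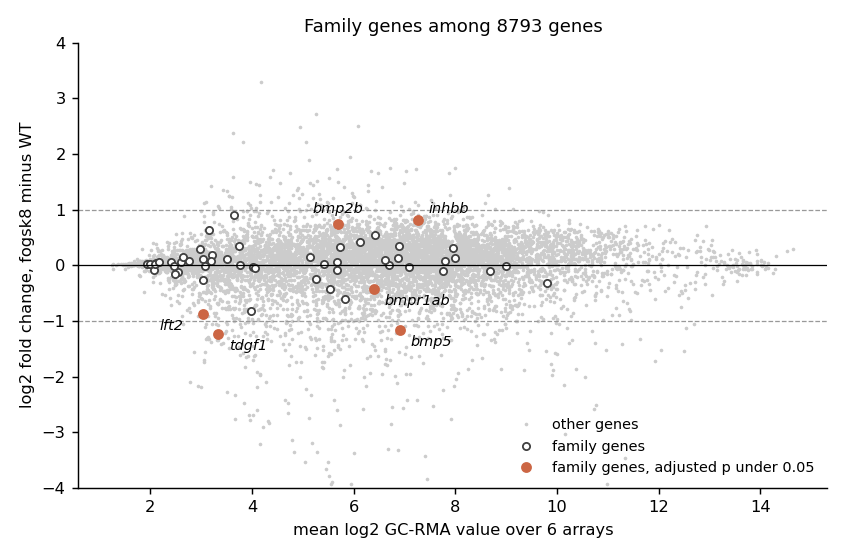
Mean log2 GC-RMA value over 6 arrays (x) against the log2 fold change, *fogsk8* minus WT (y), for 8793 genes, with the family genes as circles and its 6 called genes filled and named. The axis leaves out 15 genes beyond ±4, and the family stays between −1.24 and 0.90.

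Among the ligands, *bmp5* fell. It encodes a BMP of the Bmp5/6/7/8 group, known in mice for its part in skeletal patterning. Its log2 value was 7.58, 7.42 and 7.47 in WT and 6.15, 6.49 and 6.33 in *fogsk8*. All 3 mutant arrays were about 1 unit or more below the WT arrays. The change was −1.16 (SE 0.10, 95% interval −1.42 to −0.91, adjusted p = 0.00305), or 2.24-fold. It stayed past 2-fold and the threshold in all 15 alternative settings, with changes of −1.25 to −1.08.

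The ligand *bmp2b* (swirl), the main ventralizing BMP of the zebrafish gastrula, was higher. It read 5.43, 5.28 and 5.22 in WT and 5.87, 6.13 and 6.17 in *fogsk8*. Every mutant array was above every WT array. The change was 0.74 (SE 0.10, adjusted p = 0.00963), or 1.68-fold, with a 95% interval of 0.49 to 1.0. Without replicate 3 of both groups the adjusted p was 0.0548.

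The gene *inhbb*, which encodes the beta B subunit of Activin and Inhibin, was higher too. It read 6.91, 6.92 and 6.76 in WT and 7.50, 7.54 and 7.96 in *fogsk8*. The groups did not overlap, and *fogsk8* replicate 3 was the highest array. The change was 0.81 (SE 0.14, adjusted p = 0.0174), or 1.75-fold. The adjusted p was 0.0532 without WT replicate 1 and 0.0501 without WT replicate 2.

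The 17 ligands that were not called had changes of −0.15 to 0.90. Of all 20 ligands, 17 changes were above 0 and 3 below, against 5600 above and 3193 below among all 8793 genes. However, 13 of the 20 were near the floor, where *admp*, *gdf7*, *ndr1* and *ndr2* changed by only 0.02 to 0.07. Near the floor too, *gdf3* and *tgfb1a* were below 0. The 10th percentiles of the arrays were 2.28 to 2.31 in WT and 2.29 to 2.35 in *fogsk8*, so the signs of such small changes say little. The *fogsk8* arrays were wholly above WT for 10 ligands (25.3% of all genes) and wholly below for 1, *bmp5* (15.6% of all genes). Of the 10, *amh*, *bmp15*, *bmp2a*, *bmp7a* and *bmp8a* were near the floor, with changes of 0.05 to 0.35. The median change of the ligands was 0.09. The gene *bmp3*, a divergent BMP that opposes BMP signals in mammals, was 6.71 ± 0.26 in WT and 7.06 ± 0.076 in *fogsk8* (SD, n = 3, adjusted p = 0.15). The gene *gdf6a*, a ligand of dorsal retina and skin, was 5.92 ± 0.19 and 6.33 ± 0.092 (SD, n = 3, adjusted p = 0.0605). Its groups did not overlap, and it passed the threshold with arrays centred on their medians (adjusted p = 0.0339) and without WT replicate 1 (0.0352). The ligand *bmp4*, which acts in heart, eye and tail, was 5.40 ± 0.20 and 5.43 ± 0.11 (SD, n = 3, adjusted p = 0.87), with an interval of −0.26 to 0.33.

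The gene with the largest positive change in the family, *bmp6*, was singled out after its values were seen. It read 2.91, 3.26 and 3.43 in WT and 3.63, 4.99 and 3.69 in *fogsk8*. The groups did not overlap, but *fogsk8* replicate 2 was well above the other mutant arrays. It was the only array over 4, and through it alone the *fogsk8* mean was 4.10, so the gene was otherwise near the floor. The change was 0.90 (SE 0.40, adjusted p = 0.188), with an interval of −0.08 to 1.88.

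**Figure D3:**
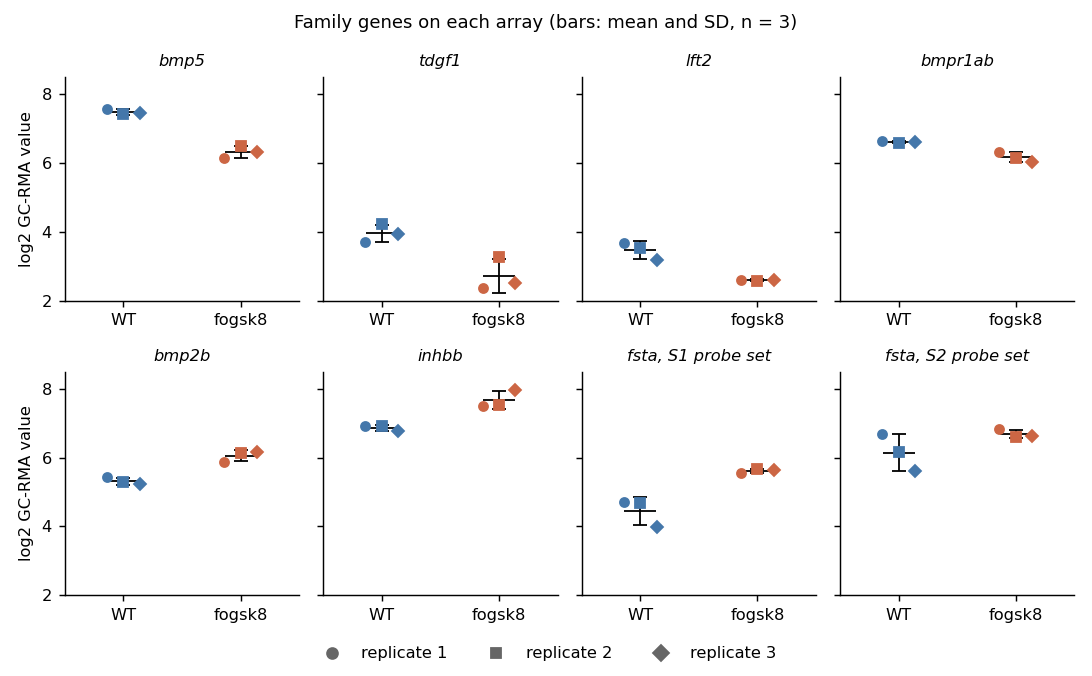
Log2 GC-RMA value on each array for the 6 called family genes and both *fsta* probe sets, with WT blue, *fogsk8* orange, replicates by marker shape, and mean and SD as bars (n = 3). The 2 groups are apart in every panel but the S2 probe set of *fsta*, where WT runs from 5.60 to 6.69.

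Of the 9 receptors and co-receptors, 2 were lower at any fold (9.14% of all genes) and 0 higher (10.8% of all genes). The co-receptor *tdgf1* (one-eyed pinhead), an EGF-CFC protein that Nodal needs to signal, read 3.71, 4.22 and 3.93 in WT and 2.37, 3.27 and 2.51 in *fogsk8*. The groups did not overlap, but *fogsk8* replicates 1 and 3 lay near the floor. The change was −1.24 (SE 0.27, 95% interval −1.90 to −0.58, adjusted p = 0.0317), or 2.36-fold. It was not past the threshold without WT replicate 1 (adjusted p = 0.0634), WT replicate 2 (0.0892), WT replicate 3 (0.0669), *fogsk8* replicate 1 (0.0827) or *fogsk8* replicate 3 (0.0908). Without replicate 3 of both groups it was 0.147.

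The type I BMP receptor *bmpr1ab* read 6.64, 6.59 and 6.60 in WT and 6.33, 6.16 and 6.04 in *fogsk8*. The WT arrays were almost equal and the mutant arrays all lower. The change was −0.43 (SE 0.085, adjusted p = 0.0236), or 1.35-fold. It lost the call without WT replicate 1 (adjusted p = 0.079), WT replicate 2 (0.0698), WT replicate 3 (0.0556) or *fogsk8* replicate 2 (0.0757). Without replicate 3 of both groups the adjusted p was 0.0719.

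The other 7 receptors changed by −0.24 to 0.31. The type II Activin receptor *acvr2ba* was 9.0 ± 0.21 in WT and 9.0 ± 0.25 in *fogsk8* (SD, n = 3, adjusted p = 0.984), with an interval of −0.41 to 0.40. The type I receptor *bmpr1aa* was 8.74 ± 0.058 and 8.64 ± 0.051 (SD, n = 3, adjusted p = 0.336). The gene *acvr1l* (lost-a-fin), a type I receptor for BMP in ventral patterning, read 7.86, 7.88 and 7.67 in WT and 8.18, 8.18 and 7.99 in *fogsk8*. All mutant arrays were above all WT arrays, in a narrow range. The change was 0.31 (SE 0.089, adjusted p = 0.0667). It passed the threshold in the fit with a replicate block (adjusted p = 0.0372) and without replicate 3 of both groups (0.0439).

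None of the 7 Smads was called by limma at any fold (10.8% of all genes were higher and 9.14% lower). Their changes were −0.83 to 0.32, with adjusted p of 0.143 to 0.913. None of the Smads had a mean under 4 in both groups, but *smad3a* was close to it, at 4.09 in WT and 4.03 in *fogsk8*. The BMP Smad *smad5* (somitabun) was 7.80 ± 0.20 in WT and 7.70 ± 0.16 in *fogsk8* (SD, n = 3). The Nodal and Activin Smad *smad2* was 6.69 ± 0.091 and 6.71 ± 0.10 (SD, n = 3), with an interval of −0.19 to 0.21. The inhibitory *smad7* was 5.56 ± 0.22 and 5.88 ± 0.098 (SD, n = 3, adjusted p = 0.143). The largest Smad change, that of *smad3b*, was singled out after its values were seen. It read 3.88, 3.99 and 5.33 in WT and 3.43, 3.64 and 3.65 in *fogsk8*. WT replicate 3 stood far above the other WT arrays and was the only array over 4, so the gene was otherwise near the floor. The change was −0.83 (SE 0.40, adjusted p = 0.222), with an interval of −1.81 to 0.15.

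Of the 13 extracellular antagonists, 1 was lower at any fold (9.14% of all genes) and 0 were higher (10.8% of all genes). The gene *lft2*, a Lefty protein that blocks Nodal and acts in the heart field on the left side, read 3.69, 3.53 and 3.17 in WT and 2.61, 2.57 and 2.61 in *fogsk8*. All mutant arrays were alike and near the floor. The change was −0.87 (SE 0.14, adjusted p = 0.0138), or 1.82-fold. It passed 2-fold without WT replicate 3 (adjusted p = 0.0049) and without replicate 3 of both groups (0.0151). Its relative *lft1*, a Lefty of the midline, went the other way without a call, and was singled out after its values were seen. It read 2.99, 2.61 and 2.93 in WT and 4.10, 3.32 and 3.02 in *fogsk8* (change 0.64, SE 0.29, adjusted p = 0.202). The groups did not overlap, but *fogsk8* replicate 3 was next to the WT arrays.

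The antagonist the study followed further is follistatin, *fsta* in current zebrafish naming, which binds Activin and BMPs. The study designed primers for it, shown here because they are the sequences by which the gene was measured outside the array. All are in lower case, 5′ to 3′, with no part marked. A first pair served for quantitative RT-PCR and again at the 3′ end of the gene in chromatin immunoprecipitation, and another pair lay at its 5′ end. By RT-PCR with the first pair, the study reported the gene as higher in *fogsk8*. By chromatin immunoprecipitation it reported Spt5 mainly at the 5′ end of the gene in WT, and less RNA polymerase II there in *fogsk8*. Where the array's probe sets lie relative to these primers is not known here.
RT-PCR and 3′ end forward: acaacaccacgtatcccagtgagt
RT-PCR and 3′ end reverse: ttgctgggcagcattggattgtct
5′ end forward: cagcactgcctgagtaagaaga
5′ end reverse: gctgacgctttagcatccttagca

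The array holds 2 probe sets for *fsta*, and they gave different calls. The S2 probe set, which has the higher mean and stands for the gene in the counts above, read 6.69, 6.15 and 5.60 in WT and 6.83, 6.60 and 6.62 in *fogsk8*. The groups overlapped, with WT spread over a wide range and the mutant arrays close together. Its change was 0.54 (SE 0.27, adjusted p = 0.248). The S1 probe set, which the study lists for this gene, read 4.70, 4.68 and 3.97 in WT and 5.55, 5.66 and 5.65 in *fogsk8*. The groups were apart, and WT replicate 3 was the lowest array in both probe sets. Its change was 1.17 (SE 0.21, adjusted p = 0.0187), or 2.25-fold. Without WT replicate 3 the change was 0.93, under 2-fold. The call was lost without *fogsk8* replicate 1 (adjusted p = 0.0547), *fogsk8* replicate 2 (0.0601) or *fogsk8* replicate 3 (0.0595). On the mean of both probe sets the change was 0.85 (adjusted p = 0.0546).

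The other 11 antagonists that were not called, leaving *fsta* aside, had changes of −0.27 to 0.64. The follistatin-like gene *fstl1b* was 7.76 ± 0.13 in WT and 7.85 ± 0.066 in *fogsk8* (SD, n = 3, adjusted p = 0.536). The BMP-binding protein gene *bmper*, a regulator of BMP in vessels, was 6.81 ± 0.19 and 6.94 ± 0.072 (SD, n = 3, adjusted p = 0.455). Of the noggins, which bind and block BMP ligands, *nog1* changed by −0.27, *nog2* by 0.11 and *nog3* by −0.02, with adjusted p of 0.14, 0.38 and 0.814, and all 3 were near the floor.

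The proteases and matrix binders were represented by *tll1*, a Tolloid-like protease of the kind that cleaves Chordin, and *tgfbi*, a matrix protein induced by TGF-beta. Neither was called by limma at any fold (10.8% of all genes were higher and 9.14% lower), and *tll1* was at the floor. The gene *tgfbi* was 9.95 ± 0.51 in WT and 9.64 ± 0.13 in *fogsk8* (SD, n = 3, adjusted p = 0.45), with WT replicate 3 at 10.54 above the other arrays. The 4 regulators in the membrane or cytoplasm were not called either (the same shares of all genes apply), with changes of −0.61 to 0.13. The pseudoreceptor *bambia*, which dampens BMP and TGF-beta signals, was 7.93 ± 0.045 and 8.06 ± 0.16 (SD, n = 3, adjusted p = 0.39). The ubiquitin ligase *smurf1*, which targets Smads and receptors, was 5.64 ± 0.22 and 5.70 ± 0.22 (SD, n = 3, adjusted p = 0.805). The gene *bmp2k*, a kinase named for its induction by BMP2 that is no receptor, read 6.26, 5.90 and 6.26 in WT and 5.61, 5.72 and 5.25 in *fogsk8*. The groups did not overlap, but the change of −0.61 (SE 0.16) had an adjusted p of 0.0563. It passed the threshold when dim probe sets were left out of the adjustment.

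Genes that arose as duplicates or close relatives were compared in each array, so that their changes could be set against each other. The difference of changes was tested by an exact two-sided permutation test over the 6 arrays, in 7 pairs, where the smallest p the design allows is 0.1 and the adjusted p is then 0.175. No pair can therefore pass 0.05. The change of *lft1* exceeded that of *lft2* by 1.51 (SE 0.38, exact p = 0.1). That of *smad3a* exceeded that of *smad3b* by 0.77 (SE 0.41, exact p = 0.1), and that of *bmpr1aa* exceeded that of *bmpr1ab* by 0.34 (SE 0.06, exact p = 0.1). In these 3 pairs the per-array differences of the groups did not overlap, which is the same fact as an exact p of 0.1 here. For single genes, the *fogsk8* arrays lay wholly above WT for 25.3% of all genes and wholly below for 15.6%. The S1 and S2 probe sets of *fsta* differed by 0.63 (SE 0.19, exact p = 0.1), also without overlap. The difference was −0.39 (SE 0.20, exact p = 0.2) for *bmp2a* and *bmp2b*, and 0.12 (SE 0.11, exact p = 0.3) for *gdf6a* and *gdf6b*. It was −0.10 (SE 0.10, exact p = 0.6) for *twsg1a* and *twsg1b*. In those 3 pairs the groups overlapped.

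**Figure D4:**
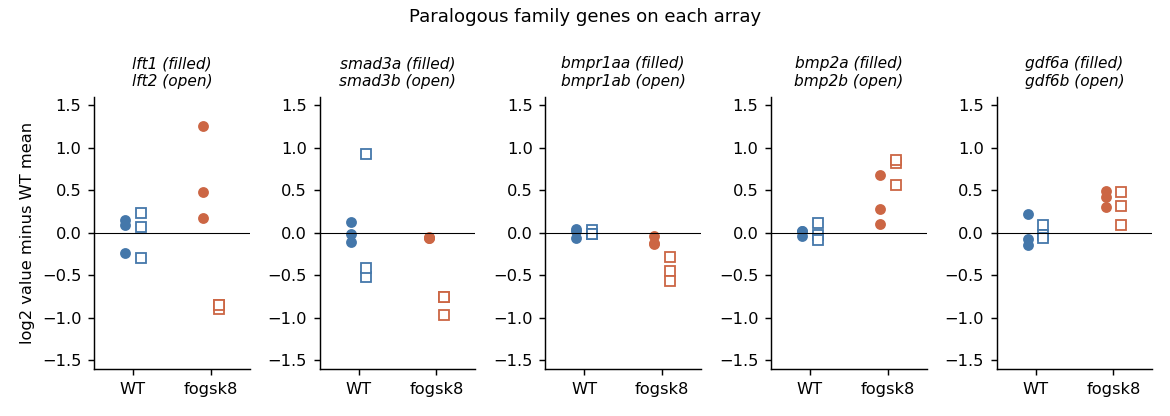
Log2 value on each array minus the mean of the 3 WT arrays of the same gene, for 5 pairs of related genes (filled and open symbols), WT blue and *fogsk8* orange. In *fogsk8* the symbols of *lft1* lie above 0 and those of *lft2* below, with changes of 0.64 and −0.87.

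Members sit next to each other in the genome in 3 cases, by the order of genes in a RefSeq annotation in which 54 of the 55 genes were found. These are *smad5* with *tgfbi*, *bmp2a* with *gdf3*, and *smad3a* with *smad6a*. None of these 6 genes was called by limma at any fold (10.8% of all genes were higher and 9.14% lower). Of the 10 genes with several probe sets, *fsta* is the only gene whose probe sets differed in their call.

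Known targets and effectors of the pathways outside the family were counted from lists of genes. The lists were chosen with earlier results of these data known, so their shares and medians describe the lists and test nothing. For BMP, 24 of 30 listed genes were measured, and 7 were higher and 2 lower at any fold, which is 29.2% and 8.33% (10.8% and 9.14% of all genes). The median change of the BMP list was 0.38, against 0.06 for all genes, and 6 of its genes were near the floor. Those higher were *id2a* (change 0.68), *id3* (1.01), *msx1b* (0.74), *msx2b* (0.70), *vox* (0.97), *gata3* (0.50) and *dlx3b* (0.64), with adjusted p of 0.00229 to 0.0331. They encode inhibitors of bHLH factors, homeobox factors and a Gata factor.

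The inhibitor gene *id3*, a direct BMP target in many tissues, read 8.65, 8.49 and 8.72 in WT and 9.62, 9.57 and 9.70 in *fogsk8*. Each group was tight and the groups lay far apart (change 1.01, SE 0.080, adjusted p = 0.00229). It was called in all 15 settings at any fold, but its change was under 2-fold with quantile normalization and without WT replicate 2 or *fogsk8* replicate 3. The homeobox gene *vox*, a ventral repressor in the gastrula, read 6.47, 6.73 and 6.29 in WT and 7.43, 7.59 and 7.36 in *fogsk8* (change 0.97, SE 0.13, adjusted p = 0.00883). Here too the mutant arrays lay wholly above WT. The genes *id2a*, *msx2b* and *vox* were called in all 15 settings, as was *tp63*. The call of *gata3* was lost without WT replicate 1 (adjusted p = 0.0899), WT replicate 2 (0.0851), *fogsk8* replicate 1 (0.0842) or *fogsk8* replicate 3 (0.0848). That of *dlx3b* was lost without WT replicate 1 (0.0617), WT replicate 2 (0.068), *fogsk8* replicate 2 (0.0963) or *fogsk8* replicate 3 (0.0903). Without replicate 3 of both groups the calls of *msx1b* (0.0743), *gata3* (0.0933) and *dlx3b* (0.0989) were lost.

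Those lower were *tp63* and *tfap2a*, both with roles in epidermis, and *tfap2a* in neural crest too. The transcription factor gene *tp63* read 7.83, 7.95 and 8.05 in WT and 6.95, 6.87 and 7.10 in *fogsk8*. All mutant arrays were below all WT arrays (change −0.97, SE 0.093, adjusted p = 0.00347). Of the 4 skin markers, 0 were called at any fold, and the part of skin in the change of *tp63* was not tested. The change of *tfap2a* was −0.48 (SE 0.098, adjusted p = 0.0272). It lost the call without WT replicate 1 (0.0738), WT replicate 2 (0.0854), WT replicate 3 (0.0612) or *fogsk8* replicate 2 (0.056). Without replicate 3 of both groups it had an adjusted p of 0.0778. The *id1* gene, another BMP target, changed by −0.21 and was not called. The largest change of the BMP list, that of *cdx4*, was 1.48 (SE 0.47, adjusted p = 0.0874), also without a call. It was singled out after its values were seen, and WT replicate 3 was its lowest array, at 5.27.

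**Figure D5:**
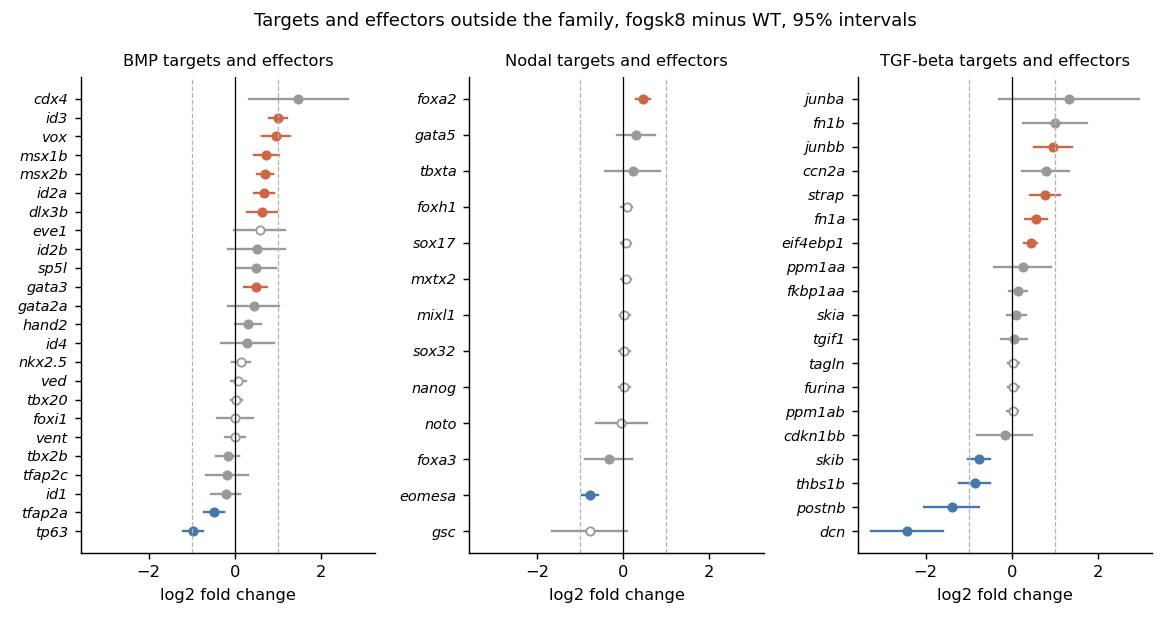
Change of the measured targets and effectors outside the family (log2 fold change, *fogsk8* minus WT, with 95% intervals from limma) in the BMP, Nodal and TGF-beta lists of 24, 13 and 19 genes. Colours, open points and dashed lines are as in the plot of the 55 family genes, and 7 BMP targets are orange and 2 blue.

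For Nodal, 13 of 22 listed genes were measured, 8 of them near the floor, and 1 was higher and 1 lower at any fold, which is 7.69% each (10.8% and 9.14% of all genes). The endoderm and floor plate factor *foxa2* changed by 0.46 (SE 0.069, adjusted p = 0.0114), and had an adjusted p of 0.0623 without replicate 3 of both groups. The T-box gene *eomesa*, a partner of Nodal signals in the early embryo and a gene of the forebrain later, read 4.57, 4.70 and 4.50 in WT and 3.76, 3.90 and 3.80 in *fogsk8*. The groups were tight and apart (change −0.77, SE 0.075, adjusted p = 0.0037). The *fogsk8* mean was 3.82, under 4, and the WT mean 4.59. The median change of the Nodal list was 0.03.

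For TGF-beta, 19 of 43 listed genes were measured, and 4 were higher and 4 lower at any fold, which is 21.1% each (10.8% and 9.14% of all genes). Past 2-fold, 0 were higher and 2 lower (0.898% and 3.2% of all genes). These were the matrix genes *dcn*, decorin, and *postnb*, a periostin. The *dcn* values were 8.08, 8.19 and 8.52 in WT and 5.51, 5.40 and 6.59 in *fogsk8*. Replicate 3 was the highest array of each group, and the groups were far apart (change −2.43, SE 0.34, adjusted p = 0.00951). The call of *dcn* was lost (0.0534) when the test named in the methods replaced limma, after the same adjustment. The change of *postnb* was −1.39 (SE 0.26, adjusted p = 0.0207). Its call was lost without WT replicate 2 (0.0529), *fogsk8* replicate 1 (0.0662) or *fogsk8* replicate 2 (0.0613).

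The remaining lower TGF-beta genes were *skib*, a repressor of Smads, with a change of −0.76, and *thbs1b*, a thrombospondin of the kind that frees TGF-beta from its latent form, with −0.86. The higher genes were *junbb*, an AP-1 factor (0.96), *fn1a*, a fibronectin (0.56), *eif4ebp1*, a translation repressor (0.44), and *strap*, a receptor-associated protein (0.77). Of these 6 genes, *skib* and *eif4ebp1* were called in all 15 settings. The adjusted p of *thbs1b* was 0.0501 without WT replicate 2 and 0.0649 without replicate 3 of both groups. That of *junbb* was 0.0706 without WT replicate 1, 0.0671 without WT replicate 2 and 0.0676 without *fogsk8* replicate 1. That of *fn1a* was 0.0505 to 0.0629 without any of 5 single arrays, all but *fogsk8* replicate 3. On the mean of its probe sets the change of *fn1a* was 0.22 (adjusted p = 0.0536). The adjusted p of *strap* was 0.0679 without WT replicate 1, 0.0663 without *fogsk8* replicate 2 and 0.0641 without *fogsk8* replicate 3. It was 0.0841 without replicate 3 of both groups.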

How the data were processed

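Total RNA of whole embryos at 24 hpf was measured on 6 arrays, 3 for each genotype named in the labels. The replicates are independent by the study's methods, and having only 3 limits the precision. The deposited log2 values were computed by the authors with GC-RMA, a method that corrects background by probe GC content, normalizes between arrays and summarizes each probe set. Its version is not stated in the paper or labels, and scanner files were not used here. The files held 0 columns of other samples, and none of the authors' fold changes.

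The test was limma's (version 3.58.1, R 4.3.3, lmFit and eBayes with no covariate) on 15502 of 15617 probe sets, leaving out 115 controls, with Benjamini-Hochberg adjustment over all of them. The platform table gave 1 symbol to 10795 probe sets, several to 135 and none to 4572, and only those with 1 symbol were named. The family's 68 probe sets read 55 genes, and 54 were found by Entrez ID in a RefSeq table (GRCz12tu, used for names and gene order only), which changed no symbol. The members and lists were chosen with earlier results of these data known.

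Family genes called at either threshold and every *fsta* probe set are given with every array. In each role, up to 3 uncalled members of highest mean are given with group means. Called genes outside the family are given by their change, and some of them with every array. Alternatives were the methods' t-test (Student) with and without adjustment, quantile normalization, a mean-variance trend in eBayes, centring of each array on its median, dim probe sets left out (mean under 4 in both groups), the replicate block, each array left out, replicate 3 of both groups left out, and the mean of a gene's probe sets. These were also run for the pathway genes past an adjusted p of 0.05, *acvr1l* and *gdf6a* after their values were seen.

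Deviations from the group means correlated at 0.12, 0.291 and 0.394 between arrays of the same replicate number, all over 0.1. By that bound alone, the numbers in the labels were treated as pairs, and only in the fit with the replicate block. The main fit used no block, and the labels do not state a pairing. However, WT replicate 2 also correlated with *fogsk8* replicate 1 at 0.148 and WT replicate 1 with *fogsk8* replicate 2 at 0.184. Both are above the 0.12 of replicate 1, so these values do not settle a pairing of replicates 1 and 2 by number. The scripts were tested on simulated data. Plots were drawn with matplotlib 3.10.9, and tables written with statsmodels 0.14.6, scipy 1.17.1 and pandas 2.3.3 under Python 3.11.15.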

Additional observations from a re-analysis of the deposited data

How the results depend on the processing

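The count of family genes past 2-fold and higher was 0 in every setting run, and the only call past 2-fold in all of them was *bmp5*. The count of 0 rests on the choice of probe set, since each setting read *fsta* by S2 or by the mean of both. No setting put the S1 probe set in its place, which limma called higher past 2-fold on the deposited values (change 1.17, adjusted p = 0.0187). The count past 2-fold and lower was 2, and 1 with the methods' t-test after Benjamini-Hochberg adjustment or with dim probe sets left out, which removes *tdgf1*. It was 1 to 2 when an array was left out. At any fold, the higher count was 2, against 6 with the methods' t-test unadjusted, 1 after its adjustment and 1 to 3 when arrays were left out. Of the genes not called on the deposited values, *smad7* passed as higher without WT replicate 1 and *bmp3* without WT replicate 3. The lower count was 4, against 1 with the adjusted t-test and 2 to 3 when arrays were left out. Without replicate 3 of both groups it was 2. The adjusted t-test also ended the calls of *bmpr1ab*, *inhbb*, *lft2*, *tdgf1* and the S1 probe set of *fsta* in the family, and of *dcn*, *dlx3b*, *fn1a*, *gata3*, *junbb*, *msx1b*, *postnb*, *strap*, *tfap2a* and *thbs1b* outside it, with adjusted p of 0.0534 (*dcn*) to 0.104 (*tdgf1*). With the replicate block the counts were 2 lower past 2-fold, 3 higher and 4 lower at any fold, and *acvr1l* was the only family call that changed. The family median was 0.033 on the deposited values, 0.072 with arrays centred on their medians, 0.071 without replicate 3 of both groups and 0.015 to 0.056 without a single array. Centring shifts every change by the same amount, set by array medians of 5.13 to 5.15 in WT and 5.08 to 5.13 in *fogsk8*. It moved the median of all genes from 0.057 to 0.096. Over all genes at any fold, 947 were higher and 804 lower, against 1614 and 1068 with the unadjusted t-test and 339 and 334 after its adjustment. For 25 family genes the signal near the floor limits what a change can show.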
